A study of Mus musculus with 15 samples.

Results

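RNA precipitated with an antibody against 5-methylcytosine (m5C RIP) is described here in 4 libraries that compare homozygous (Hom) with heterozygous (Het) carriers of a dominant mutation in Dnmt1 in 2 tissues. They were chosen by genotype, antibody and tissue in the labels, with no wild type (WT) library among them, and make up 4 of the 15 libraries of the series. Each tissue gave 1 Het and 1 Hom library, so the comparison has 2 libraries per genotype. The series also holds an RNA immunoprecipitation with an antibody against Dnmt1 from fibroblasts of the 3 genotypes, WT m5C libraries and 1 input library per tissue.

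All 4 groups carry at least 1 mutant copy of Dnmt1, with a sequence change not given in the sources used here. The fibroblast Het and Hom groups are lines isolated from the tails of littermates of the same sex and grown in medium with serum, so each genotype is a single library of cultured cells. The cortex Het and Hom groups are labelled as cortex only, with the age, sex and number of animals not given in the sources used here. Messenger RNA was isolated on oligo-dT beads before the m5C antibody was added. No input exists for each genotype, so a difference in RNA pulled down cannot be told apart from a difference in RNA abundance. In these bulk samples, fewer cells of a type and less RNA per cell also cannot be told apart.

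Dnmt1 is the maintenance methyltransferase that copies cytosine methylation onto newly made DNA strands. In RNA, m5C is written mainly by the NSUN family and by Trdmt1 (also called Dnmt2), which resembles a DNA methyltransferase but acts on transfer RNA. Alyref and Ybx1 are known readers of the mark, and TET enzymes and Alkbh1 can oxidise it.

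Counts in genes were 2163814 (Het) and 725824 (Hom) in fibroblasts and 1434653 (Het) and 2408694 (Hom) in cortex, and 17328 to 24189 genes had at least 1 count. Levels are given as CPM, the counts of a gene scaled to the total gene counts of its library. A count of 0 allows up to 3 counts, which corresponds to 1.25 to 4.13 CPM, and such limits and the 95% exact intervals below cover counting error only. Most reads of these libraries, 79.3 to 89.5%, were recorded as not aligned, with the fibroblast Hom library at the upper end. The mutation leaves the Dnmt1 transcript countable, so its level does not check the labels. Ddx3y, on the Y chromosome, had 51.9 to 85.5 CPM over the 4 libraries and Xist at most 4.13 CPM. Across genes, log2(CPM + 1) correlated more closely between the cortex libraries (Pearson r = 0.976) than between the fibroblast libraries (0.933), each over all 31017 genes of the tables. The fibroblast WT library numbered 1 held at least the count of the fibroblast Hom library in 100% of genes and exactly the same count in 7163 genes. Results below leave that WT library out unless it is named or a fit of 7 libraries is. Cortex WT stood apart too, with 86.25% of reads not aligned, against 79.67% in cortex Het and 79.28% in cortex Hom. Mitochondrially encoded genes summed to 12320 CPM in cortex WT, beside 19520 CPM in Het and 18640 CPM in Hom.

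Markers were read to check the tissue labels, and they moved with genotype in fibroblasts. Fibroblast markers such as Col1a1 and Pdgfra summed to 32520 CPM in the fibroblast Het library and 28820 CPM in Hom, against 643 and 666 CPM in cortex, with all 18 detected in both fibroblast libraries. Macrophage and microglia markers, such as Lyz2, Csf1r and Mrc1, summed to 8704 CPM in fibroblast Het and 14820 CPM in fibroblast Hom, and none of the 19 was at 0 there. In cortex the same list summed to 259 and 254 CPM. The fibroblast libraries therefore held macrophage transcripts at a far higher level than cortex did, and more of them in Hom.

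Transcripts of brain cells were also present in the fibroblast libraries. All 23 neuron markers were detected in both, summing to 1317 CPM in Het and 1919 CPM in Hom, which is 9.30% and 12.9% of the level in cortex of the same genotype. Astrocyte markers stood at 9.20% and 14.0% of the cortex level, oligodendrocyte markers at 8.03% and 12.5%, and choroid plexus and ependymal markers at 10.5% and 15.2%. The share was higher in Hom for each of these 4 lists. It was 12.2% and 19.6% for inhibitory neuron markers, and 17.4% in both genotypes for markers of hippocampus and striatum. The part of these transcripts in the results below was not tested.

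**Figure D1:**
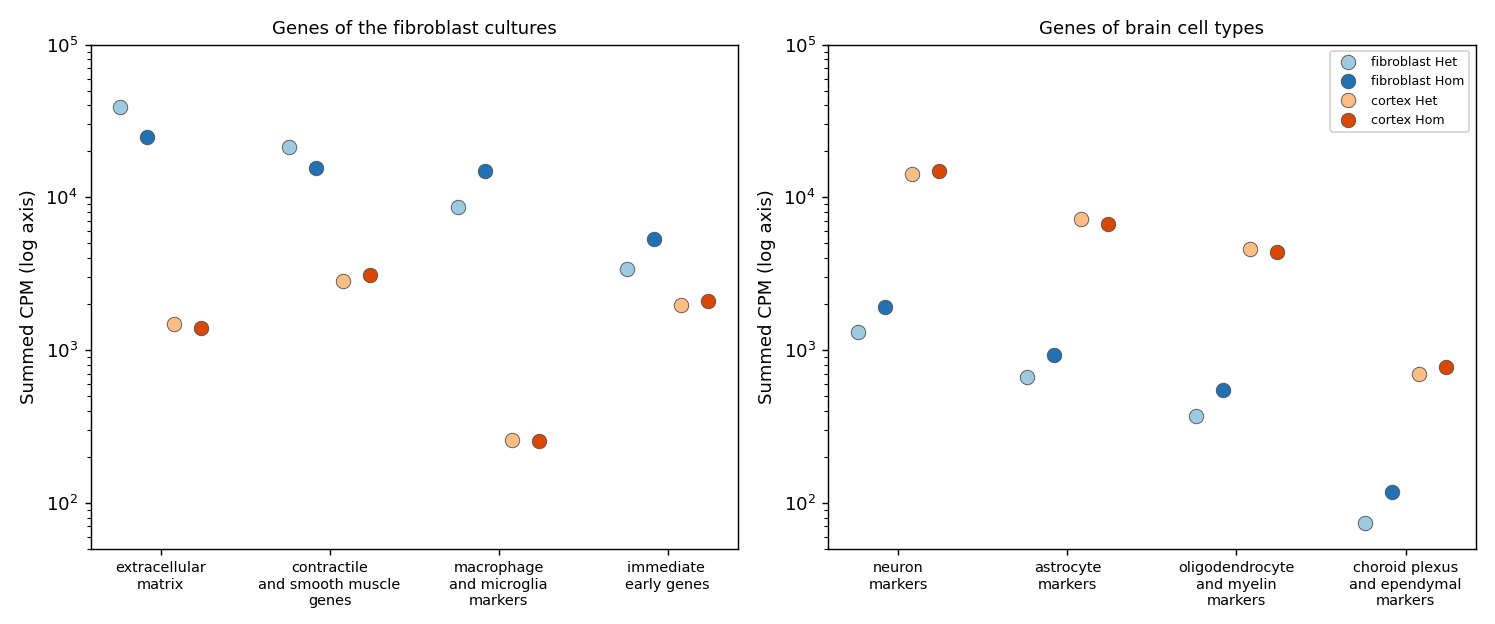
Summed CPM (log axis) of the members of 8 gene lists in each of the 4 libraries, 1 point per library, with gene groups of the fibroblast cultures on the left and brain cell types on the right. In fibroblasts matrix and contractile genes sit lower in Hom and macrophage, immediate early and brain cell genes sit higher, while the paired cortex points lie close together.

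Hom was compared with Het in both tissues at once, with tissue as a block, to ask which RNAs differed between the genotypes irrespective of tissue. Of 13090 genes tested with edgeR's quasi-likelihood test, 2 (0.0153%) passed a Benjamini-Hochberg adjusted p of 0.05. Wfdc17 was higher in Hom (1 gene, 0.00764%) and Ltbp2 was lower (1 gene, 0.00764%). At an unadjusted p under 0.05 there were 243 genes higher (1.86%) and 237 lower (1.81%), and 49.3% of all estimates were positive. DESeq2 called 0 genes, with 68 at an unadjusted p under 0.05. The 4 libraries leave 1 residual degree of freedom, which is the disagreement of the tissues. To this edgeR added 40.8 prior degrees of freedom drawn from all genes. The p-values therefore rest mostly on a spread shared across genes, and that spread is between these libraries only.

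Ltbp2 encodes a latent transforming growth factor beta binding protein, a large protein of the extracellular matrix that associates with fibrillin microfibrils. Its level was 214 CPM (462 counts) in fibroblast Het and 68.9 CPM (50 counts) in fibroblast Hom, and 9.06 CPM (13 counts) in cortex Het and 0.830 CPM (2 counts) in cortex Hom. Hom was below Het in each tissue, although the tissues themselves differed more than the genotypes did. The log2 fold change was -1.87 ± 0.367 (SE, n = 2 per genotype), with an adjusted p of 0.0487 by edgeR's quasi-likelihood test with Benjamini-Hochberg adjustment. By direct counts the Hom level was 0.322 times that of Het in fibroblasts (95% exact interval 0.236 to 0.432) and 0.0932 times in cortex (0.0102 to 0.412). The WT levels do not set Het apart as the higher one in both tissues: fibroblast WT library 2 had 404 CPM and cortex WT 0.763 CPM. Adjusted p ranged from 0.00157 to 1 over the alternatives tried, and with all 7 m5C libraries in the fit it was 0.996. By the same edgeR test adjusted p was 0.0884 without fibroblast WT library 1 and 0.9999 without cortex WT. In the fit of all 7 libraries the log2 fold change was -4.14 without fibroblast Het and -2.50 without fibroblast Hom. Each of these last 2 fits left the cortex library alone for that genotype. Ltbp2 lies on chromosome 12 (mm10, chr12:84783212-84876532, minus strand, GENCODE M21).

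Wfdc17 is a small secreted protein with a whey acidic protein domain, made by activated macrophages. It had 45.3 CPM (98 counts) in fibroblast Het, 198 CPM (144 counts) in fibroblast Hom and no count in either cortex library. Its call therefore rests on the fibroblast pair, 1 library per genotype. With no cortex count the tissues could not disagree, so its p-value measures no spread of this gene between replicates. The log2 fold change was 2.12 ± 0.398 (SE), with an adjusted p of 0.0487 by the same edgeR test, while DESeq2 gave a log2 fold change of 0.87. The fibroblast Hom level was 4.38 times that of Het (95% exact interval 3.36 to 5.72). Adjusted p ranged from 0.000489 to 1 over the alternatives. By the same edgeR test it was 0.0884 with the m5C libraries other than fibroblast WT library 1. In the fit of 7 libraries, the estimate was -2.50 without fibroblast Hom and 2.96 without fibroblast Het. Without fibroblast Hom, cortex Hom with no count was the only Hom library left, so the negative sign was fixed in advance. Without fibroblast Het, cortex Het with no count was the only Het library left, so the positive sign was fixed likewise. Macrophage markers were higher in the same library, at 14820 against 8704 CPM, and their part in the Wfdc17 call was not tested. The gene lies on chromosome 11 (chr11:83703991-83706268, plus strand). Because the antibody recognises a modified cytosine, the coding part of its messenger RNA is printed 5′ to 3′ from GENCODE M21 as DNA letters, with each cytosine in capitals. Of its 231 bases, 49 are cytosines (21.2%).

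Wfdc17: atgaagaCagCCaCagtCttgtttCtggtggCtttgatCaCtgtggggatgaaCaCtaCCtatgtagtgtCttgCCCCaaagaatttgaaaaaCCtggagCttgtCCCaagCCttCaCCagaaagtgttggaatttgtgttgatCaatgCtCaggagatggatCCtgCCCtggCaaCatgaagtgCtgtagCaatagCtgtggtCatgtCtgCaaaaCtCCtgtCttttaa

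Over the longest annotated transcript of each gene, cytosines made up 22.9% of Wfdc17 and 29.6% of Ltbp2. The median was 24.4% over 12999 tested genes with an annotation. The gene that was higher in Hom lay below that median and the gene that was lower lay above it, each side being a single gene. The genes that narrowly missed the threshold, described next and all higher in Hom, shared no side. Ier2 (29.7%) and Atf3 (25.8%) lay above the median and Bc1 (19.05%) below it. Wfdc17 and Ltbp2 lay between 19.7 and 29.7%, the bounds beyond which the lowest and the highest 10% of these genes lie.

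A further 3 genes missed the threshold with an adjusted p of 0.0508 by the same edgeR test, namely Ier2, Atf3 and Bc1. Ier2 and Atf3 are immediate early genes, which are switched on within minutes by growth factors or stress without new protein synthesis. Ier2 had 67.0 CPM in fibroblast Het and 254 CPM in Hom, and 4.88 and 8.30 CPM in cortex. Atf3, a stress-induced transcription factor, had 34.2 and 142 CPM in fibroblasts and 2.09 and 5.40 CPM in cortex. For both, the Hom library lay above Het in each tissue, but the cortex values rest on 3 to 20 counts and their 95% exact intervals include equal levels (0.703 to 4.85 times for Ier2 and 0.721 to 14.4 times for Atf3). The log2 fold changes were 1.69 ± 0.343 for Ier2 and 1.94 ± 0.399 for Atf3 (SE). Adjusted p for Ier2 was between 0.00184 and 1 and for Atf3 between 0.00228 and 1 over the alternatives. Without fibroblast Het in a fit of 7 libraries the Ier2 estimate was 0.77, with cortex Het the only Het library left.

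Bc1 is a brain cytoplasmic RNA made by RNA polymerase III in neurons, where it takes part in the control of translation in dendrites. It was the gene nearest to the threshold whose counts came from cortex, with 119 CPM (171 counts) in Het and 380 CPM (914 counts) in Hom, against 1.85 and 4.13 CPM in fibroblasts. The cortex Hom level was 3.24 times that of Het (95% exact interval 2.75 to 3.84). Cortex WT, which stood apart in unaligned reads and mitochondrial genes, had 397 CPM, close to Hom. Het was the lowest of the 3 cortex libraries, with a single library per genotype. The pooled log2 fold change was 1.65 ± 0.341 (SE), and adjusted p ranged from 0.00528 to 1 over the alternatives. The whole transcript (chr7:144914470-144914637, plus strand) is printed 5′ to 3′ from GENCODE M21 as DNA letters with cytosines in capitals, because it is the shortest RNA among these genes and carries an internal stretch of adenines that can bind oligo-dT. It has 168 bases, of which 32 (19.05%) are cytosines. The part before the adenines is shared with the ID repeats scattered over rodent genomes, so the assignment of its reads is uncertain.

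Bc1: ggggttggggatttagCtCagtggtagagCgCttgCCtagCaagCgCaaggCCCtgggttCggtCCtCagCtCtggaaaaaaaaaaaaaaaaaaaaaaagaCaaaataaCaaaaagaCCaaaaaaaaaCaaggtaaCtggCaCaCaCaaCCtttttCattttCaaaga

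**Figure D2:**
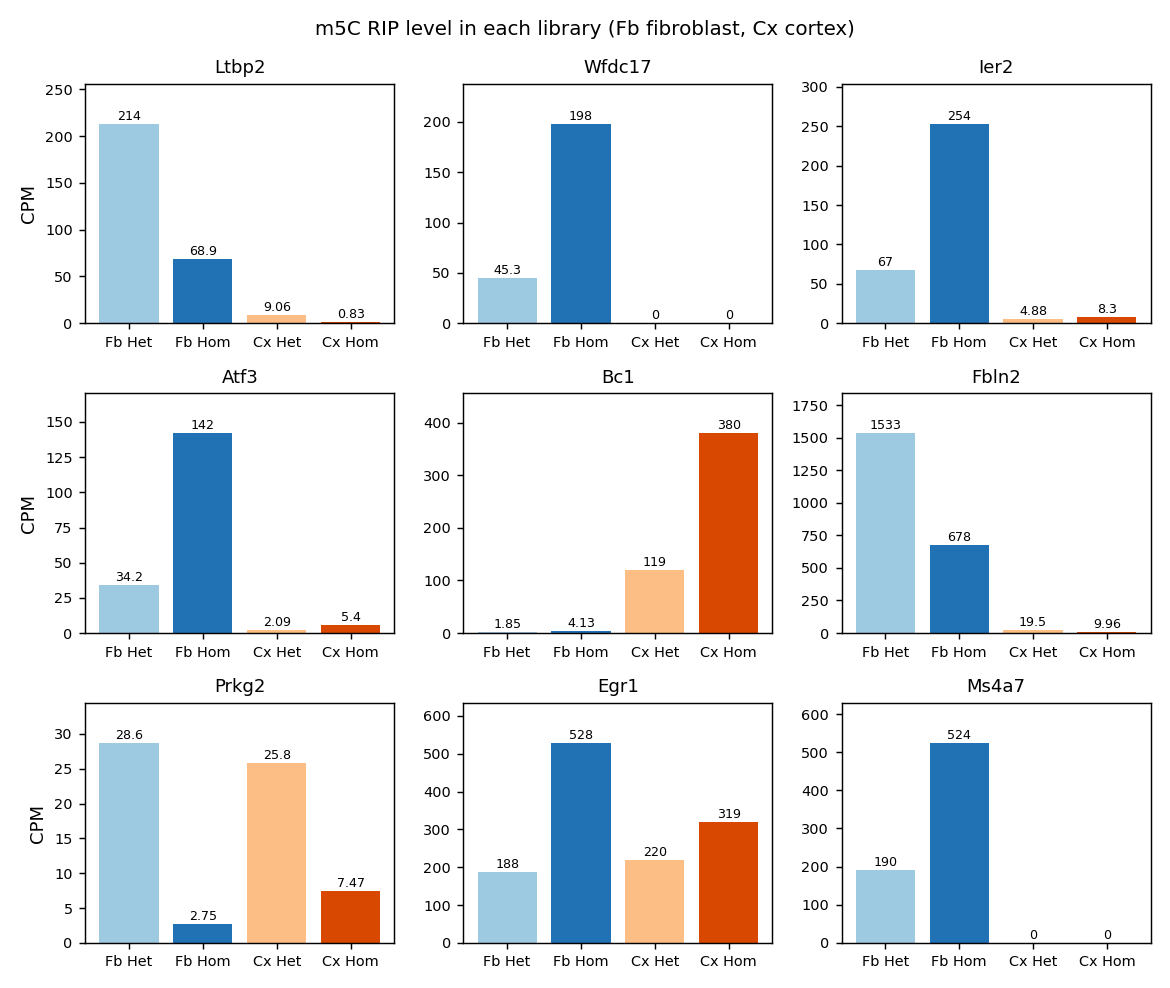
CPM of 9 genes in each of the 4 libraries, 1 bar per library with its value, on a linear axis from 0 that differs between genes. Ltbp2 and Prkg2 were lower in Hom in both tissues, Bc1 differed in cortex, and Wfdc17 and Ms4a7 had no count in cortex.

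None of the 33 immediate early genes tested was called by edgeR, beside a background of 0.00764% called higher. At an unadjusted p under 0.05 there were 9 higher in Hom and 1 lower, against 1.86% and 1.81% of all genes, and 27 of the 33 estimates were positive. The median log2 fold change of the list was 0.31, beside -0.005 over all genes, and the sign held with RLE factors, total counts and DESeq2. By tissue the median ratio was 0.72 in fibroblasts and 0.12 in cortex. Egr1, a zinc finger transcription factor induced by growth signals and by neuronal activity, was 188 and 528 CPM in fibroblast Het and Hom and 220 and 319 CPM in cortex Het and Hom. Its Hom level was 2.81 times that of Het in fibroblasts (95% exact interval 2.44 to 3.24) and 1.47 times in cortex (1.29 to 1.69), so both intervals excluded equality. The pooled log2 fold change of 1.02 ± 0.275 (SE) had an adjusted p of 0.518 by edgeR's quasi-likelihood test. Jund, a member of the AP-1 family, had 122 and 262 CPM in fibroblasts and 18.1 and 27.0 CPM in cortex, again with Hom above Het in each tissue. Fos, the founding member of that family, went opposite ways, with 104 and 192 CPM in fibroblasts and 59.3 and 31.6 CPM in cortex. Fosl1 was the member with a negative estimate at an unadjusted p under 0.05, at 54.5 and 15.2 CPM in fibroblasts and 9.76 and 8.72 CPM in cortex. Fos was chosen after its values were seen.

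Genes of the extracellular matrix had mostly negative estimates, and these came from fibroblasts. Of 44 tested, 1 was called lower (Ltbp2) and 0 higher, beside 0.00764% of all genes in each direction. At an unadjusted p under 0.05, 9 were lower and 1 higher, against 1.81% and 1.86% of all genes. Estimates were negative for 38 of the 44, with a median of -0.35. By tissue the median ratio was -0.47 in fibroblasts, where 10 members were at least 2-fold lower (5.9% of all genes were) and 2 at least 2-fold higher (4.84%), and -0.02 in cortex. In a fit of all 7 m5C libraries that left out fibroblast Het, the median was 0.01, with cortex Het the only Het library left.

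Fbln2, fibulin-2, a matrix protein that binds fibronectin and elastin, had 1533 CPM in fibroblast Het and 678 CPM in Hom, and 19.5 and 9.96 CPM in cortex. Its Hom level was 0.442 times that of Het in fibroblasts (95% exact interval 0.401 to 0.486) and 0.519 times in cortex (0.288 to 0.929), lower in each tissue. The pooled log2 fold change of -1.10 ± 0.324 (SE) had an adjusted p of 0.808 by edgeR. Loxl3, a lysyl oxidase that cross-links collagen and elastin, had 98.4 and 33.1 CPM in fibroblasts and 6.27 and 2.91 CPM in cortex. Timp3, an inhibitor of metalloproteinases bound to the matrix, had 128 and 37.2 CPM in fibroblasts and 87.1 and 64.8 CPM in cortex, with Hom below Het in each. Efemp1, fibulin-3, had 142 and 62.0 CPM in fibroblasts and 11.9 and 4.98 CPM in cortex, and its intervals excluded equality in both (0.312 to 0.599 and 0.186 to 0.950 times). Fn1, fibronectin, named by the rule as a fibroblast marker, had 2749 and 1020 CPM in fibroblasts and 105 and 81.0 CPM in cortex.

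Elastin was 1 of the 8 matrix genes with a higher level in fibroblast Hom. Eln had 43.9 CPM (95 counts) in Het and 307 CPM (223 counts) in Hom, 6.99 times as much (95% exact interval 5.48 to 8.99), the highest ratio in fibroblasts among genes with at least 100 counts in the pair that the naming rule admits. In cortex it had 25.8 and 18.3 CPM, 0.720 times (0.455 to 1.147). Fibroblast WT library 2 had 68.5 CPM. The pooled log2 fold change was 1.52 ± 0.408 (SE) with an adjusted p of 0.518 by edgeR. In a fit of 7 without the fibroblast Het library the log2 fold change was -0.10, with cortex Het the only Het library left. Among 33 collagens 0 were called, and the median was -0.33. At an unadjusted p under 0.05, 3 were lower and 0 higher, against 1.81% and 1.86% of all genes. Col8a1, a short-chain collagen of vessel walls and the cornea, was one of the 3, with 164 and 62.0 CPM in fibroblasts and 4.18 and 4.57 CPM in cortex. Col1a1, the main collagen of these cultures and the most abundant of them, had a fibroblast log2 ratio of 0.11, so the collagens did not share 1 direction.

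Contractile and smooth muscle genes, which mark fibroblasts with stress fibres, gave the lowest fibroblast median among the lists drawn in the plot of list medians. Of 28 tested 0 were called by edgeR. At an unadjusted p under 0.05, 8 were lower and 0 higher, against 1.81% and 1.86% of all genes. Estimates were negative for 25, and the median of -0.45 stayed negative with RLE factors, total counts and DESeq2. The median ratio was -0.79 in fibroblasts, with 10 at least 2-fold lower (5.9% of all genes were), and 0.15 in cortex. Without fibroblast Het in a fit of 7 libraries the pooled median was 0.06, with cortex Het the only Het library left. Acta2, smooth muscle actin, had 1082 and 360 CPM in fibroblast Het and Hom and 15.3 and 17.4 CPM in cortex. Actg2, an enteric smooth muscle actin, had 60.1 and 12.4 CPM in fibroblasts and no count in cortex. For both, Hom was lower in fibroblasts beyond counting error, while in cortex the interval of Acta2 (0.675 to 2.03 times) included equality. Cnn1, calponin, had 20.8 and 2.75 CPM in fibroblasts and 6.27 and 0.830 CPM in cortex, lower in Hom in each, on 2 counts in each Hom library.

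**Figure D3:**
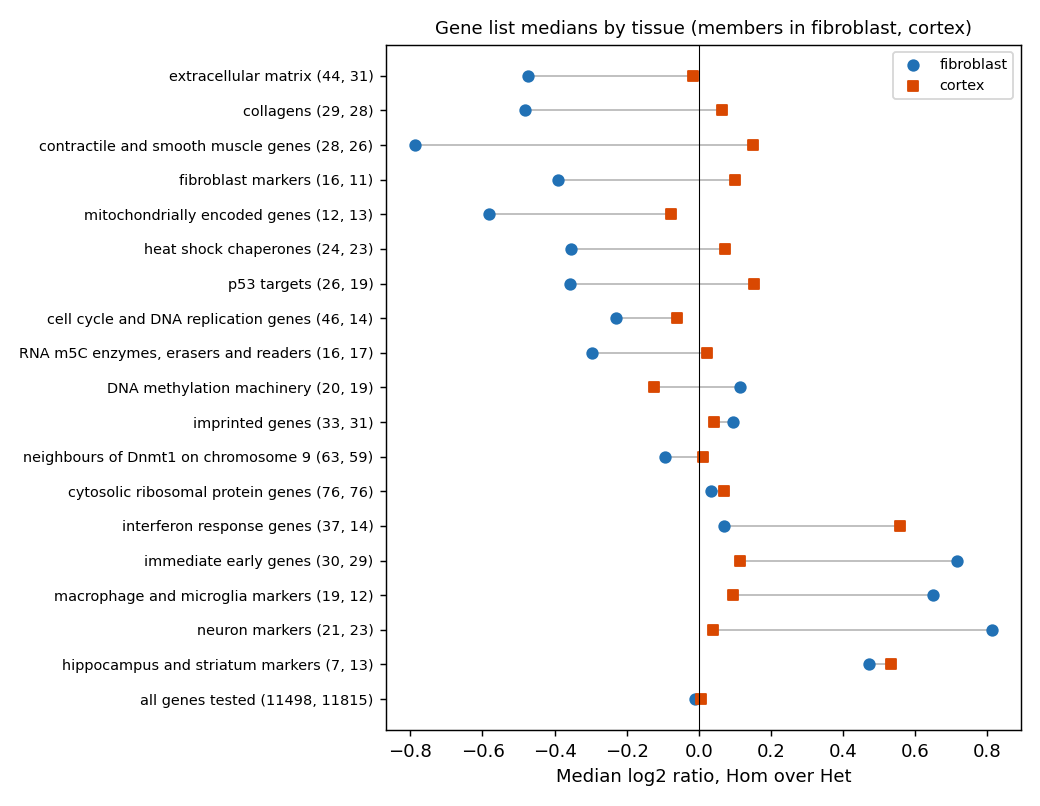
Median log2 ratio of Hom over Het of 18 gene lists and of all genes, in fibroblasts (circles) and cortex (squares), for members with at least 20 counts in the pair of that tissue, whose numbers stand in brackets. Matrix, contractile and collagen genes lie below 0 and immediate early, macrophage and neuron genes above 0 in fibroblasts, while most cortex medians lie near 0.

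Macrophage transcripts took a larger share of the fibroblast Hom library than of Het. Of 19 macrophage and microglia markers tested, 0 were called and 17 estimates were positive, with a median of 0.37. At an unadjusted p under 0.05, 3 were higher and 0 lower, against 1.86% and 1.81% of all genes. The median ratio was 0.65 in fibroblasts and 0.09 in cortex. Lyz2, the lysozyme of myeloid cells, had 4113 and 7427 CPM in fibroblasts and 1.39 and 3.32 CPM in cortex. Csf1r, the receptor that macrophages need to survive, had 427 and 814 CPM in fibroblasts and 62.7 and 68.9 CPM in cortex. Mrc1, the mannose receptor, had 274 and 437 CPM in fibroblasts and 4.88 and 8.72 CPM in cortex. Hom was higher for all 3 in fibroblasts, by 1.59 to 1.90 times.

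Several inflammatory and myeloid genes outside that list had larger fibroblast ratios. They were chosen after their values were seen, apart from Clec4n, Entpd1 and Cebpb. Tnf, the cytokine, had 61.5 and 198 CPM in fibroblast Het and Hom and no count in cortex. Ms4a7, a membrane protein of macrophages, had 190 and 524 CPM and no count in cortex. Clec4n, the C-type lectin Dectin-2, had 33.7 and 125 CPM and no count in cortex. Entpd1, the ectonucleotidase CD39, had 29.1 and 119 CPM in fibroblasts and 14.6 and 25.3 CPM in cortex, with both intervals excluding equality (2.90 to 5.72 and 1.06 to 3.04 times). By edgeR's quasi-likelihood test with Benjamini-Hochberg adjustment these had adjusted p of 0.145 (Tnf and Entpd1), 0.278 (Ms4a7) and 0.285 (Clec4n). Il1rl1, the receptor for interleukin-33, was on the other side, with 397 and 132 CPM in fibroblasts, no count in cortex and an adjusted p of 0.193 by the same test. Tnf, Ms4a7, Clec4n and Il1rl1 had no cortex count. As for Wfdc17, their p-values measure no spread of the gene between replicates. Cebpb, a transcription factor of inflammatory and acute phase genes, had 545 and 1182 CPM in fibroblasts, and 0 and 22 counts in cortex. Cortex WT had 15.3 CPM of Cebpb against 9.13 CPM in cortex Hom, so cortex Het was the lowest, with a single library per genotype. In the fit of 7 libraries without fibroblast Hom, the estimates of Wfdc17, Ms4a7 and Clec4n turned negative. Cortex Hom, then the only Hom library, had no count of them, so that sign says nothing about the fibroblast difference. DESeq2 gave log2 fold changes of 0.52 for Ms4a7 and 0.75 for Clec4n, where edgeR gave 1.46 and 1.88.

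Of 37 interferon response genes tested 0 were called. At an unadjusted p under 0.05, 4 were higher and 1 lower, against 1.86% and 1.81% of all genes. The median ratio was 0.07 in fibroblasts, and 0.56 in cortex over the 14 members with at least 20 counts there, of which 3 were at least 2-fold higher (2.0% of all genes were) and 1 at least 2-fold lower (1.67%). The difference between the tissues was not tested.

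In cortex the 2 libraries differed little, with 236 genes at least 2-fold higher in Hom (2.0%) and 197 lower (1.67%) of 11815, against 556 (4.84%) and 678 (5.9%) of 11498 in fibroblasts. The fibroblast Hom library had the fewest gene counts of the 4, and with 1 library per genotype these counts have no test. Of 13 markers of hippocampus and striatum, regions next to the cortex, 0 were called and the median was 0.66. Pooled estimates were positive for 11, with 5 of them at an unadjusted p under 0.05, against 1.86% of all genes. In cortex 11 of 13 were higher in Hom, and in fibroblasts 4 of the 7 with at least 20 counts. The sums were 1025 CPM in cortex Het, 1555 CPM in cortex Hom and 1257 CPM in cortex WT, so WT lay between. Penk, the precursor of enkephalins in striatal neurons, had 104 and 161 CPM in cortex and 23.6 and 66.1 CPM in fibroblasts. Ppp1r1b, a dopamine-regulated phosphatase inhibitor, had 337 and 478 CPM in cortex. Rgs9, a regulator of G protein signalling rich in striatum, had 59.3 and 103 CPM. Neuron markers as a whole did not show this in cortex, where their median ratio was 0.04 and their sum 14170 and 14880 CPM. In fibroblasts their median ratio was 0.81, and 7 of the 21 with at least 20 counts were at least 2-fold higher (4.84% of all genes were).

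Other cortex differences were in small groups. Blood cell markers summed to 232 CPM in cortex Het and 98.0 CPM in Hom, and Hba-a1, an alpha-globin gene with a near-identical copy, had 78.8 and 32.8 CPM. Vwf, the von Willebrand factor of endothelial cells, had 95 and 56 counts, 0.357 times in Hom (95% exact interval 0.252 to 0.502). Tesc, a calcium-binding protein, had 15 and 85 counts in cortex, 3.43 times (1.97 to 6.40), and 11 and 10 in fibroblasts, 2.71 times (1.03 to 7.02). Eif2s3y, a Y-linked translation factor gene, had 46.7 and 20.3 CPM in cortex and 60.5 and 33.1 CPM in fibroblasts, with both intervals below equality. Ddx3y on the same chromosome, chosen like Kdm5d after its values were seen, had 72.5 and 51.9 CPM in cortex. In fibroblasts Ddx3y had 85.5 and 63.4 CPM. Kdm5d had 55.1 and 59.8 CPM in cortex, so of these Y-linked genes it alone was not lower in Hom there.

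Across the 10299 genes with at least 20 counts in each pair, the tissues' ratios were close to unrelated (Spearman rho = 0.021, Pearson r = 0.016), and 51.2% had the same sign. These genes share libraries and depth and are not independent. At least 2-fold higher in both tissues were 10 genes (0.0971%), at least 2-fold lower in both were 9 (0.0874%), and 25 were at least 2-fold in opposite directions (0.243%). Prkg2, a cyclic GMP-dependent protein kinase, was among those lower in both, with 28.6 CPM (62 counts) and 2.75 CPM (2 counts) in fibroblasts and 25.8 CPM (37 counts) and 7.47 CPM (18 counts) in cortex. Its Hom level was 0.0961 times that of Het in fibroblasts (95% exact interval 0.0114 to 0.362) and 0.295 times in cortex (0.158 to 0.531). The log2 fold change of -2.21 ± 0.527 (SE) had an adjusted p of 0.202 by edgeR. Among those higher in both was Slc40a1, ferroportin, the iron exporter of macrophages, with 15.7 and 52.4 CPM in fibroblasts and 4.88 and 12.04 CPM in cortex. Cebpb and Tesc were among them too.

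**Figure D4:**
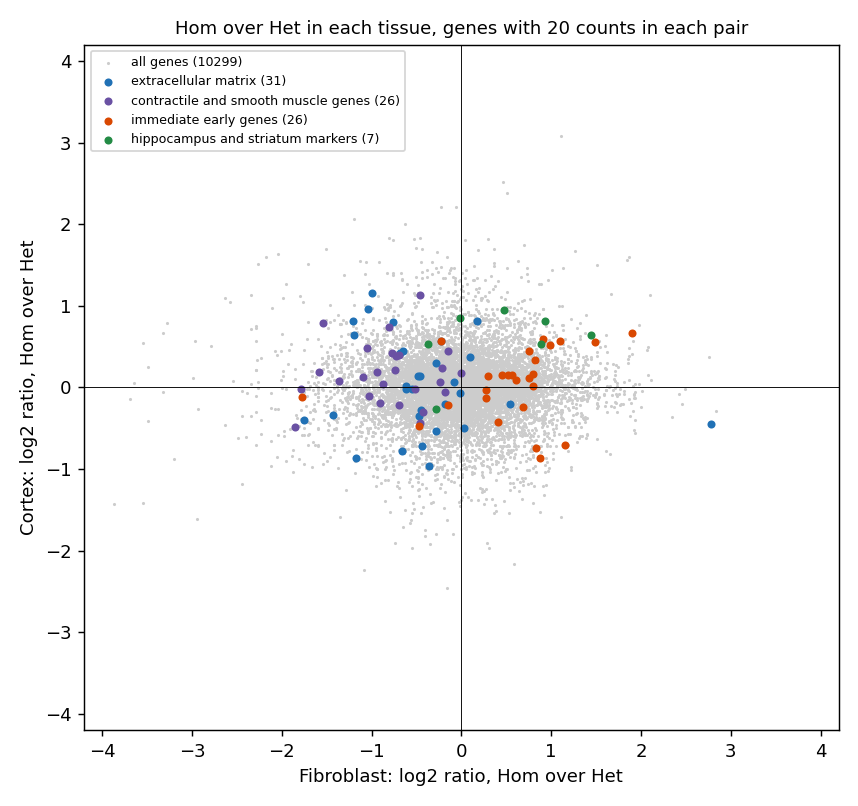
Log2 ratio of Hom over Het in fibroblasts (x) against cortex (y), 1 point per gene, for 10299 genes with at least 20 counts in each pair. Grey points are all genes and coloured points are members of 4 lists. Matrix and contractile genes spread to the left and immediate early genes to the right, with little shift along the cortex axis.

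No gene of the machinery of cytosine methylation passed the test. Of 17 genes for RNA m5C enzymes, erasers and readers that were tested, 0 were called by edgeR and 0 had an unadjusted p under 0.05, beside 3.67% of all genes. Nsun2, the main m5C writer of messenger RNA, had 98.4 and 90.9 CPM in fibroblasts and 61.3 and 54.0 CPM in cortex, 0.923 times (95% exact interval 0.689 to 1.22) and 0.895 times (0.678 to 1.19). Alyref and Ybx1 were chosen after their values were seen. Alyref had 93.4 and 93.7 CPM in fibroblasts and 30.7 and 42.8 CPM in cortex, and Ybx1 441 and 405 CPM and 76.0 and 76.0 CPM. Alkbh1 was lower in fibroblast Hom, at 31.4 and 11.02 CPM, on 68 and 8 counts. Trdmt1 had only 2 to 16 counts in a library. Of 21 DNA methylation genes 0 were called and 0 had an unadjusted p under 0.05, with a median of 0.01 whose sign changed with total counts.

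Dnmt1 itself (chr9:20907209-20959888, minus strand) had 396 and 694 CPM in fibroblast Het and Hom and 1162 and 1114 CPM in cortex. The fibroblast Hom level was 1.75 times that of Het (95% exact interval 1.57 to 1.96), while cortex was at 0.975 times (0.917 to 1.04). The pooled log2 fold change was 0.38 ± 0.294 (SE), with an unadjusted p of 0.204 by edgeR. Over all genes 1.86% were higher and 1.81% lower at an unadjusted p under 0.05. Of 69 genes tested within 5 Mb of Dnmt1, 1 was higher and 1 lower at that p, and the median was -0.08. Of 34 imprinted genes, whose parental expression depends on DNA methylation, 1 was higher and 0 lower at that p, with a median of 0.13. Of 30 germline genes that DNA methylation keeps silent, 1 reached the filter on low counts. Mitochondrially encoded genes had a median of -0.31, with 10 of 13 estimates negative, 2 of them at an unadjusted p under 0.05. Of the other lists with at least 20 members tested, cytosolic ribosomal protein genes (0.06), nuclear-encoded respiratory chain genes (0.07), cholesterol genes (-0.06) and integrated stress genes (-0.07) had medians within 0.1 of 0, while cell cycle genes (-0.15), p53 targets (-0.20) and heat shock chaperones (-0.22) lay lower.

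The Dnmt1 RIP compared the same genotypes in fibroblasts with 2 libraries each and shares no library with the m5C RIP. There, edgeR's quasi-likelihood test called 0 of 13589 genes in either direction (0.0%), with 180 higher in Hom (1.32%) and 449 lower (3.3%) at an unadjusted p under 0.05, and DESeq2 called 15, all lower. The 4 dominant genes (Lars2, Gm42418, Gm26917 and Gm10800) took 5.71 to 63.5% of the counts in these Het and Hom libraries, with the maximum in Hom library 1. Ltbp2 had 115 and 41.0 CPM in the Het libraries and 10.7 and 38.9 CPM in the Hom libraries, the second of each being nearly level, with a log2 fold change of -1.54 ± 0.671 (SE) and an adjusted p of 0.989 by edgeR. Fbln2 had 354 and 408 CPM in Het and 15.5 and 109 CPM in Hom, with a log2 fold change of -2.52 ± 0.545 (SE) and the same adjusted p of 0.989. Both genes had negative estimates with either antibody.

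Immediate early and macrophage genes had mostly negative estimates with the Dnmt1 antibody. Ier2 had 162 and 169 CPM in Het and 5.83 and 47.7 CPM in Hom, and its log2 fold change was -2.51 ± 0.673 (SE), with an adjusted p of 0.989 by edgeR, where the m5C estimate was 1.69. Junb, chosen after its values were seen, had 447 and 281 CPM in Het and 33.0 and 65.3 CPM in Hom, while in fibroblast m5C RIP it had 221 CPM in Het and 393 CPM in Hom. Wfdc17 varied more within a genotype than between them, with 2.46 and 58.4 CPM in Het and 1.94 and 13.9 CPM in Hom. Lyz2 did so too, with 22.1 and 2715 CPM in Het and 3.89 and 451 CPM in Hom. The list medians in the Dnmt1 RIP were -1.38 for immediate early genes, -1.58 for macrophage markers, -1.58 for matrix genes and -0.36 for contractile genes. Over the 12008 genes in both fits the median was -0.05. Negative estimates were not particular to these lists. Fibroblast markers had a median of -1.97 (2 of 15 positive) and cytosolic ribosomal protein genes -0.55 (3 of 75 positive). Neuron markers (21 of 23) and excitatory neuron and cortical layer markers (16 of 16) were mostly positive, with medians of 0.25 each. Of the 243 genes higher in m5C RIP at an unadjusted p under 0.05, 85 had a positive and 138 a negative estimate there, and of the 237 lower genes 65 were positive and 158 negative, with 223 of each tested in both. Over all 12008 genes, 5637 were positive and 6371 negative.

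The WT libraries give the level of these genes without the mutation, and they stood differently in the 2 tissues. In fibroblast WT library 2, matrix genes summed to 36900 CPM, beside 39320 CPM in Het and 24830 CPM in Hom, and contractile genes to 20850 CPM, beside 21380 and 15540 CPM. Macrophage markers summed to 8228 CPM, beside 8704 and 14820 CPM, and immediate early genes to 3857 CPM, beside 3383 and 5375 CPM. For these 4 sums fibroblast WT lay closer to Het than to Hom. In cortex WT the sums were 1308 CPM for matrix, 3278 CPM for contractile, 231 CPM for macrophage and 2529 CPM for immediate early genes. There Hom lay closer to WT than Het did for each of the 4, on smaller differences. The cortex WT library had more unaligned reads than either. Across genes, log2(CPM + 1) of fibroblast Het correlated with this WT library at r = 0.952 and with Hom at 0.933. In cortex, WT correlated with Hom at 0.966 and with Het at 0.962, both below the 0.976 between Het and Hom.

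Transcript length and base composition were weakly related to the ratios. In fibroblasts the ratio correlated across 11420 genes with exon length (Spearman rho = -0.068), GC content (0.116) and cytosine content (0.113). In cortex the same values were -0.009, 0.056 and 0.041 over 11736 genes. Genes in the lowest 20% by cytosine content had a median fibroblast ratio of -0.11 and those in the highest 20% 0.09, so RNAs richer in cytosine were slightly higher in the fibroblast Hom library. With offsets for GC content and exon length together, edgeR called 4 genes, 3 higher and 1 lower.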

How the data were processed

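The authors deposited 1 table of raw gene counts per library. Per the submitters' processing notes, the steps were Trim Galore 0.4.1, HISAT2 on mm10 and featureCounts. With annotation, strand setting and other versions not given in the sources used here, overlapping or antisense genes cannot be told apart. The tables of the 4 libraries end with 5 summary entries, for example for unaligned reads, written the way a different counter does, and these were left out of library sizes and tests; gene counts were 3.79 to 7.76% of all entries. Per the labels' protocols both ribosomal RNA depletion and polyA enrichment were used, their assignment to libraries being not given in the sources used here.

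Samples were grouped by the titles and genotype labels. Counts were tested with edgeR 4.0.16 in R 4.3.3: filterByExpr by genotype (minimum count 10, minimum total 15), TMM factors, tissue and genotype as terms, glmQLFit and glmQLFTest, Benjamini-Hochberg adjustment over 13090 genes and a threshold of 0.05. The common biological coefficient of variation was 0.189. The SE was taken as the absolute log2 fold change over the root of the F statistic. Ratios within a tissue used TMM sizes and a prior count of 2, and direct folds have 95% exact binomial intervals. The Dnmt1 RIP fit held 6 libraries with genotype alone (0.424), where WT serves the estimate of spread. Of 31017 symbols 30532 matched GENCODE M21. The fits were tested on simulated data.

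The members, gene lists and tests were chosen with earlier results of these data known. Genes were named by rule: past the threshold, or the smallest p, up to 12 per direction with the same sign in both tissues and a mean of at least 5 CPM; the 8 largest ratios per tissue and direction with at least 100 counts; up to 4 members of each list; the 6 most abundant; and Dnmt1, Lars2, Nsun2 and Trdmt1. Other named genes are marked as chosen after their values were seen. Alternatives were other scalings and filters, DESeq2 1.42.0, no tissue block, all 7 m5C libraries with and without each Het and Hom library, removal of dominant and of non-polyadenylated RNAs, and GC and length offsets. Requiring at least 10 counts in each pair and leaving out a WT library were added after the data were seen. Plots were drawn with matplotlib 3.10.9 in Python 3.11.15, and intervals came from SciPy 1.17.1. Some genes that the rule names are not reported here.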

Additional observations from a re-analysis of the deposited data

Results flagged for a closer look

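The tissues went opposite ways for 19 genes, with at least 2-fold ratios, at least 20 counts in each pair and counting intervals that exclude equal levels. The count and interval criteria were chosen after the values were seen, placeholder names were left out, and the difference between the tissues was not tested. Log2 ratios of Hom over Het are given for fibroblasts first and cortex second. Pax6, a transcription factor of the developing forebrain and eye, had -2.27 and 1.52, and Emx2, a homeobox gene of the developing cortex, had -2.04 and 1.64. Nexn and Myh7, which encode an actin-binding protein and a slow muscle myosin, had -2.57 and 1.04, and -2.17 and 1.60. Apex1, a base excision repair nuclease, had -1.99 and 1.09, and Pml, the organiser of nuclear bodies, -1.07 and 1.53. Podn, a matrix proteoglycan, had -1.13 and 1.55, and Ccbe1, a secreted factor of lymphatic growth, -1.20 and 2.06. Slc22a5, the carnitine transporter, had -1.76 and 1.04, and Fah, the last enzyme of tyrosine breakdown, -1.06 and 1.00. Cep135, a centriole protein, had -1.19 and 1.01, and Hmgn5, a nucleosome-binding protein, -1.07 and 1.38. Aatf had -1.07 and 1.01, Cript -1.47 and 1.00, Fam57a -1.71 and 1.51, and D11Wsu47e -1.79 and 1.12. Srp54b, whose reads can be split with near-identical copies, had -1.51 and 1.70. Decr1, an enzyme of fatty acid oxidation, was higher in fibroblast Hom at 1.11 and lower in cortex Hom at -1.59, and Relt, a receptor of the tumour necrosis factor family, likewise had 1.23 and -1.02. Of these 19, 17 were lower in fibroblast Hom, the library with the fewest gene counts. Their counts in that library ran from 1 (Myh7 and Apex1) to 22 (Podn), and in cortex Het from 4 (Podn) to 21 (Aatf). Before the interval and name criteria, 25 of 10299 genes (0.243%) went at least 2-fold in opposite directions.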

How the results depend on the processing

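Called genes numbered 2 (1 higher and 1 lower). They numbered 11 with RLE factors (10 and 1), 10 with total counts and 10 with a filter of 5 CPM (7 and 3 each), 6 with no filter (5 and 1), 5 without the 4 dominant genes and 5 with 10 counts in each pair (4 and 1 each), and 4 without non-polyadenylated RNAs and 4 with GC and length offsets (3 and 1 each). They numbered 0 with DESeq2, with no tissue block and with all 7 m5C libraries, where 68, 1 and 412 genes had an unadjusted p under 0.05. Leaving out fibroblast WT library 1 gave 2 higher and 0 lower, and these were Ier2 and Bc1. By edgeR's quasi-likelihood test adjusted p was then 0.0311 for both, while Wfdc17 and Ltbp2 were not called (0.0884 for both). Leaving out cortex WT gave 0 (288 unadjusted). Leaving out a Het or Hom library left 1 library of that genotype, so only estimates are given for those fits. Estimates changed sign for Wfdc17 (-2.50), Ms4a7 (-2.79) and Clec4n (-1.61) without fibroblast Hom, for Dnmt1 (-0.50) and Eln (-0.10) without fibroblast Het and for Dnmt1 (-0.29) without cortex Hom. Each of these fits left 1 library of that genotype and kept fibroblast WT library 1. For Wfdc17, Ms4a7 and Clec4n the library left was cortex Hom with no count, so their negative sign was fixed in advance. With these 4 libraries and tissue in the fit, 0 of 256 gene estimates changed sign. The cause of the other sign changes was not tested. In the Dnmt1 RIP, 0 became 15 with DESeq2 and 35 without Het replicate 2, all lower. The replicate block left 0 called there (681 unadjusted). Its numbers were not taken to pair libraries, as deviations of same-numbered libraries correlated at only -0.01, 0.06 and 0.20. The tissue block already sets Het beside Hom within a tissue in the m5C RIP. No paired analysis was possible beyond it because the labels number neither the Het nor the Hom m5C libraries. The 2-fold counts per tissue stayed within 1.5 times. Depth limits cortex values of fibroblast genes, and 130 tested genes had no cortex count.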
